A study of Homo sapiens with 8 samples.

Results

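The integrin subunits measured here are ITGB1, ITGB4, ITGB5, ITGB6, ITGB8, ITGA2, ITGA3, ITGA5, ITGA6 and ITGAV. Their probes were found through the RefSeq accession that the array files give for each probe, and 11 of 42405 probes mapped to these 10 genes. The genes were chosen by the log2 fold change of the ITGB1 probe, which was lower after KHSRP knockdown, so its difference between the groups is given as a description with no test. The question put to the other probes was whether the alpha subunits that bind the beta 1 chain, and the other beta subunits, moved with it.

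Messenger RNA was measured on 8 Agilent 1-colour arrays. The cells were KYSE850, a human line established from squamous cell carcinoma of the esophagus. In the control group, 4 arrays held RNA from cells treated with a control siRNA, and in the knockdown group 4 arrays held RNA from cells treated with KHSRP siRNA. An siRNA directs the cleavage of mRNA with a matching sequence, and KHSRP is an RNA-binding protein that acts in the decay and splicing of mRNA and in the maturation of microRNAs. Both groups share the cell line, a single line without stromal or immune partner cells, and the labels give neither the siRNA sequence used on an array nor whether the replicates were separate cultures. The p-values therefore measure the spread between these samples, which may be technical.

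Integrins are receptors of the cell surface, each made of an alpha and a beta chain, that tie the extracellular matrix to the cytoskeleton. The beta 1 chain joins with many alpha chains to bind collagen, laminin and fibronectin. In stratified squamous epithelium, alpha 2 beta 1 and alpha 3 beta 1 mark the basal layer, alpha 6 beta 4 anchors the hemidesmosome, and the alpha V chain pairs with several beta chains that bind fibronectin, vitronectin or latent TGF-beta.

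A level is given throughout as the log2 processed signal minus the 75th percentile of the same array, so that a level of 0 lies at that percentile. Levels of different probes depend on the probe and were not set against each other. The KHSRP probe was read first as a check of the labels. Its level was 6.08 ± 0.24 (SD, n = 4) in the control group and 2.71 ± 0.19 (SD, n = 4) in the knockdown group, which left 9.66% of the control signal (log2 fold change -3.37, SE 0.16, limma adjusted p = 5.95e-05). The exact permutation p of this probe was 0.0286, two-sided, the smallest that 4 arrays against 4 can give.

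The arrays were of like quality, with 45.1% to 49.4% of probes well above background and no saturated spot. Of 10 squamous epithelial markers, 10 were well above background on all 8 arrays, whereas 7 of 8 fibroblast markers and 4 of 4 endothelial markers were not well above background on any array. The exception among the fibroblast markers was COL1A1, which was well above background on all 8 arrays. Of the 7 leukocyte markers, CD79A and CD14 were so on all 8 arrays, CD3E on 5 and PTPRC on 4, while ITGB2, ITGAL and ITGAM were on none. Of the 3 platelet markers, GP9 was so on 7 arrays, ITGA2B on 1 and PF4 on none. No marker bright enough to be tested passed the limma test between the groups, and the others, all endothelial markers among them, were not tested. Within each group the arrays fell into 2 sets: control arrays 1 and 3 and knockdown arrays 1 and 4 deviated from their group means together, as did control arrays 2 and 4 and knockdown arrays 2 and 3. Over 17229 probes the correlation of these deviations was 0.33 to 0.86 within the sets and -0.77 to -0.17 between them. Deviations of a group sum to 0, which by itself lowers the correlations among its arrays. The sets are described by these same deviations, so the contrast is no test of them. Each set held 2 arrays of each group. The squamous keratin KRT5, for example, ranged from 3.11 to 5.84 among the controls and from 2.92 to 5.98 in the knockdown group, with the higher levels in the first set.

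ITGB1, the common beta chain of the collagen, laminin and fibronectin receptors, was measured by 1 probe, A_23_P104199, placed in 10 spots on each array and listed under the RefSeq transcript NM_133376. The gene lies on chromosome 10, and RefSeq (GRCh38.p14) lists 3 transcripts of it. No other probe of the array mapped to ITGB1 under the rule, so that the transcripts could not be read apart. The ITGB1 level was 2.12, 1.94, 2.07 and 1.88 in control arrays 1 to 4 and -0.11, -0.13, -0.14 and -0.37 in knockdown arrays 1 to 4. All 4 knockdown arrays lay below all 4 control arrays, and knockdown array 4 was the lowest.

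The mean ITGB1 level was 2.004 ± 0.11 (SD, n = 4) in the control group and -0.19 ± 0.12 (SD, n = 4) in the knockdown group. The log2 difference was -2.19 (SE 0.11), a 4.57-fold lower signal, or 21.9% of the control signal. In bulk RNA, fewer cells that carry an mRNA and less of that mRNA per cell cannot be told apart. With the normexp background correction in place of the scanner's processed signal, the difference was -1.61. It was -2.34 within the first set of arrays and -2.04 within the second.

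**Figure D1:**
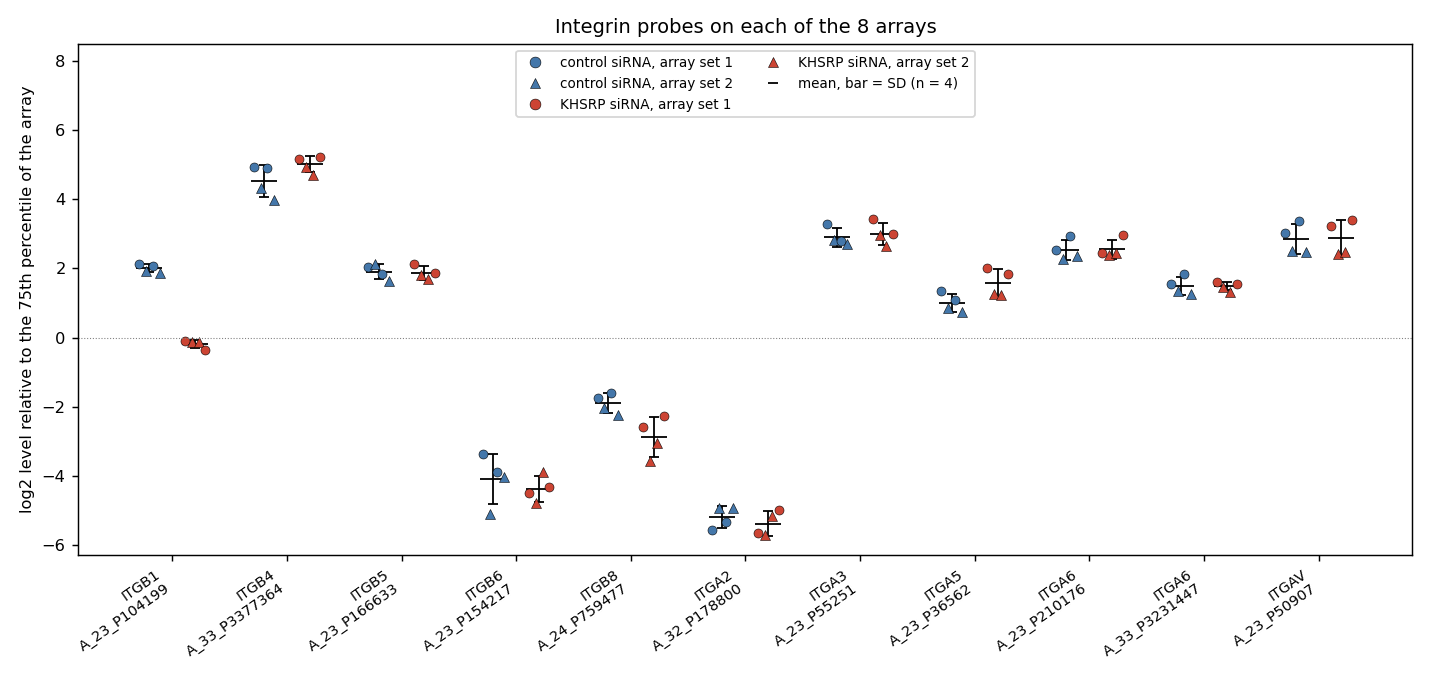
Log2 level relative to the 75th percentile of the array (vertical axis) for the 11 integrin probes (horizontal axis), with control siRNA arrays in blue, KHSRP siRNA arrays in red, circles for the first and triangles for the second set of arrays, and the mean and SD of 4 arrays in black. ITGB1 separates the groups from 1.88 and above to -0.11 and below, ITGB8 separates them narrowly, and the other probes overlap; levels of different probes are not comparable.

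The repeated spots give the variation of this probe from spot to spot within an array, not that between arrays. Of its 80 spots on the 8 arrays, 6 were marked as outliers by the scanner software and left out. The SD among the remaining spots of 1 array was 0.056 to 0.124 on the log2 scale, with a median of 0.091. The alpha V probe, A_23_P50907, was also placed in 10 spots, and its spots varied as little within an array, with an SD of 0.060 to 0.129 and a median of 0.087. The 2 probes differed in how the arrays of a group varied: the SD among the 4 control arrays was 0.11 for ITGB1 and 0.43 for ITGAV. Between the sets of arrays, the mean level differed by 0.04 for ITGB1 and by 0.79 for ITGAV.

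**Figure D2:**
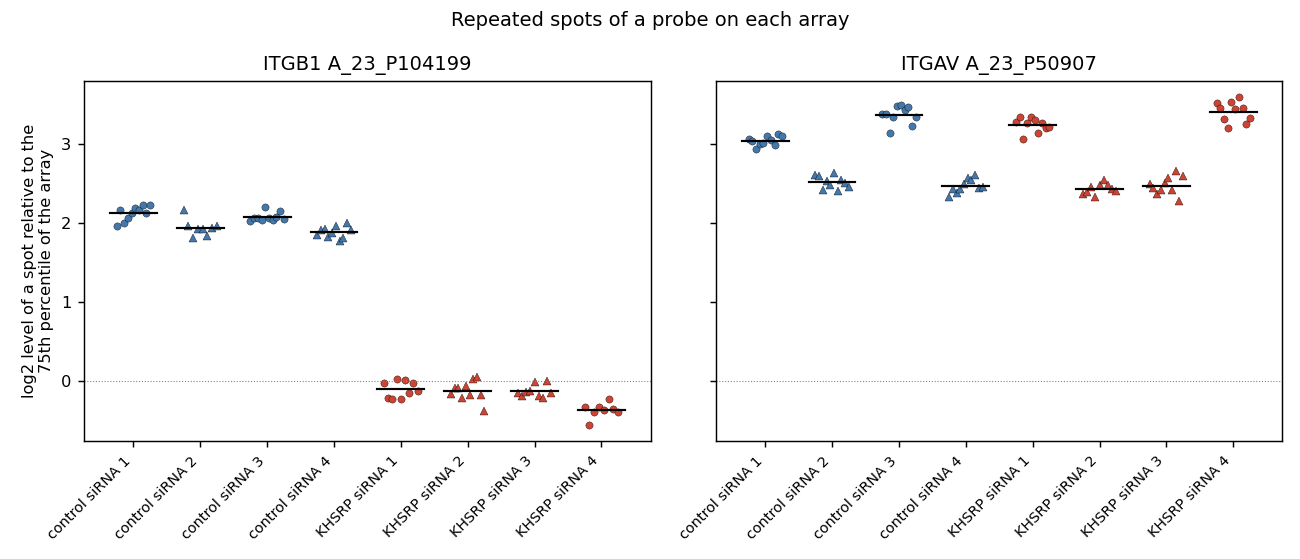
Log2 level of each spot relative to the 75th percentile of its array (vertical axis) on each array (horizontal axis) for ITGB1 (left) and ITGAV (right), with control siRNA in blue, KHSRP siRNA in red, circles and triangles for the 2 sets of arrays, and a line at the array mean. ITGB1 spots split by siRNA, whereas ITGAV spots split by array set, near 2.43 to 2.52 on 4 arrays and 3.04 to 3.41 on the other 4.

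Among the alpha partners of the beta 1 chain, no probe passed the test. Of 5 tested probes, 0 were called by limma at an adjusted p under 0.05, and 1, for ITGA5, had an unadjusted p under that value. Over all tested probes, 5.54% were called and 19.6% had an unadjusted p under that value. The median log2 fold change of the 5 alpha probes was 0.04, against 0.01 over all 18761 tested probes.

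ITGA5, the alpha chain of the classical fibronectin receptor, was higher in the knockdown group. Its level was 1.34, 0.85, 1.08 and 0.73 in control arrays 1 to 4 and 2.01, 1.26, 1.22 and 1.84 in knockdown arrays 1 to 4. The groups overlapped, since knockdown arrays 2 and 3 were below control array 1. The log2 fold change was 0.58 (SE 0.22, limma adjusted p = 0.188, unadjusted p = 0.0295). The 4 knockdown arrays paired with the control arrays, when numbered as in the deposited table of processed values, as described with the block below, differed by 0.66, 0.41, 0.76 and 0.49.

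ITGA3, the laminin-binding partner of beta 1 in basal keratinocytes, was at 3.30, 2.81, 2.79 and 2.70 in the control arrays and at 3.42, 2.98, 2.64 and 2.99 in the knockdown arrays. The log2 fold change was 0.11 (SE 0.20, limma adjusted p = 0.850), and its 95% interval ran from -0.34 to 0.56. The groups overlapped, and the highest array of each was its array 1.

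ITGA6, which binds laminin with either beta 1 or beta 4, had 2 probes under the same transcript accession. Probe A_23_P210176 was at 2.55, 2.28, 2.94 and 2.35 in the control arrays and at 2.43, 2.38, 2.46 and 2.97 in the knockdown arrays. Probe A_33_P3231447, with 1 spot per array, was at 1.55, 1.35, 1.85 and 1.25 in the control arrays and at 1.60, 1.47, 1.32 and 1.55 in the knockdown arrays. Both probes overlapped between the groups, with log2 fold changes of 0.03 (SE 0.19) and -0.01 (SE 0.15). The 95% intervals were -0.41 to 0.47 and -0.36 to 0.34, and the limma adjusted p-values were 0.962 and 0.985.

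ITGAV, which also joins beta 5, beta 6 and beta 8, was at 3.04, 2.52, 3.37 and 2.46 in the control arrays and at 3.24, 2.43, 2.47 and 3.41 in the knockdown arrays. The groups lay on top of each other, with the higher arrays of both in the first set. The log2 fold change was 0.04 (SE 0.29, limma adjusted p = 0.970, 95% interval -0.63 to 0.71). ITGA2, the collagen-binding partner, was between -5.72 and -4.93 and was not well above background on any of the 8 arrays, so it was not tested and no difference can be read from it.

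The difference between 2 probes of the same array does not depend on how arrays were scaled, so ITGB1 was set against each alpha probe within every array. These differences contain the ITGB1 probe that led to the choice of genes and are described with no test. Against ITGA3 the change was -2.30, against ITGA5 -2.77, against the ITGA6 probes -2.22 and -2.18, and against ITGAV -2.23 on the log2 scale. For each of the 5 alpha probes, every knockdown array lay below every control array, with a gap between the groups of 1.27 for ITGAV to 2.14 for ITGA5. The spread within the knockdown group was widest against ITGAV, from -3.78 to -2.56, compared with -1.29 to -0.58 in the controls. The change relative to the 75th percentile of the array, -2.19, lay within the range of these 5 values, and that against ITGA5 was the farthest from it.

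**Figure D3:**
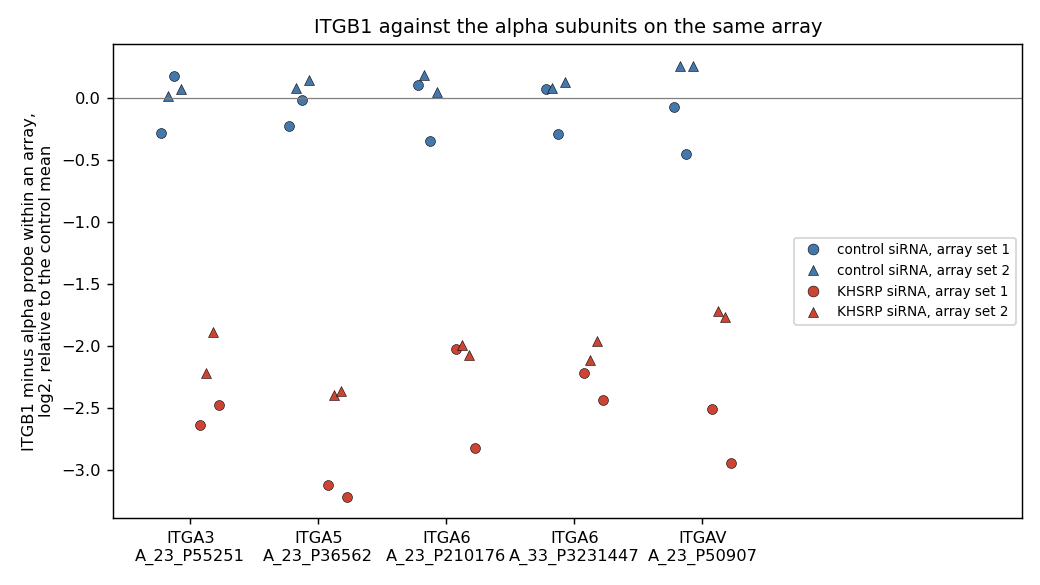
ITGB1 level minus the level of an alpha probe on the same array, in log2 units relative to the control mean of that pair (vertical axis), for each alpha probe (horizontal axis), with control siRNA in blue, KHSRP siRNA in red and circles and triangles for the 2 sets of arrays. The knockdown arrays lie below the control arrays for all 5 alpha probes, and the mean changes run from -2.77 for ITGA5 to -2.18 for ITGA6 probe A_33_P3231447.

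Of the other beta subunits, 3 of 4 were tested and 0 were called by limma, with 1 at an unadjusted p under 0.05. ITGB8, which pairs with alpha V to bind latent TGF-beta, was the only one of the 8 tested probes other than ITGB1 whose groups did not overlap, a state found in 14.8% of all tested probes. Its level was -1.74, -2.04, -1.61 and -2.23 in the control arrays and -2.58, -3.58, -3.05 and -2.26 in the knockdown arrays. Knockdown array 4 and control array 4 nearly met, and the probe was well above background on 4 control and 3 knockdown arrays. Testing required all 4 arrays of a group to be so. ITGB8 met this only in the control group, where it was higher, so its p-values and its lack of overlap are descriptions. The log2 fold change was -0.96 (SE 0.28, limma adjusted p = 0.0945, unadjusted p = 0.00875), and it was -0.24 with the normexp background correction.

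ITGB4, the beta chain of the hemidesmosome, was at 4.93, 4.33, 4.92 and 3.99 in the control arrays and at 5.17, 4.95, 4.71 and 5.22 in the knockdown arrays. The groups overlapped only through knockdown array 3, since 3 knockdown arrays were above all 4 controls. The log2 fold change was 0.47 (SE 0.24, limma adjusted p = 0.326). It was 0.29 without control array 4, and 0.27 within the first set of arrays and 0.67 within the second. ITGB5, a vitronectin receptor chain with alpha V, was at 2.05, 2.12, 1.83 and 1.65 in the control arrays and at 2.14, 1.80, 1.68 and 1.87 in the knockdown arrays. Its groups overlapped, with a log2 fold change of -0.04 (SE 0.15, limma adjusted p = 0.938, 95% interval -0.38 to 0.31). ITGB6, an epithelial partner of alpha V that activates latent TGF-beta, was between -5.10 and -3.37 and was well above background on 1 control array and 0 knockdown arrays, so it was not tested.

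The within-array differences were also taken for the pairs that these beta chains form, after the levels had been seen. ITGB8 minus ITGAV changed by -1.003 on the log2 scale, from -4.97 to -4.56 in the controls and from -6.01 to -5.52 in the knockdown arrays, without overlap. How often other pairs of probes separate in this way was not counted. ITGB8 lay close to background, and its own change was -0.24 with the normexp background correction. ITGB4 minus ITGA6 changed by 0.44 with probe A_23_P210176, where the groups overlapped, and by 0.48 with probe A_33_P3231447, where the controls reached 3.38 and the knockdown arrays began at 3.40. ITGB5 minus ITGAV changed by -0.08, well inside the SD of 0.47 in the controls and 0.40 in the knockdown group.

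The way the arrays were numbered decided how 3 of these probes were read. The deposited table of processed values holds knockdown arrays 3 and 4 in the opposite order to the scanner files. By the numbers of that table, every numbered pair of a control and a knockdown array deviated together, with correlations of 0.573, 0.485, 0.860 and 0.864, whereas by the scanner files the last 2 pairs gave -0.688 and -0.671. The other pairs within the sets of arrays also deviated together, with correlations of 0.402 to 0.447. The labels do not say that arrays of the same number are pairs, and these correlations come from the arrays that were tested. With the pairs of the table as a block, the limma adjusted p was 0.00669 for ITGA5, 0.0227 for ITGB4 and 0.00938 for ITGB8, with the same log2 fold changes and SEs of 0.082, 0.104 and 0.155. In that fit 3 of the 8 tested probes other than ITGB1 were called, 2 higher and 1 lower, beside 30.1% of all tested probes, of which 14.8% were higher and 15.3% lower. The 1 lower was ITGB8, which was tested only through the control group, so its call is given as a description. In each of the 4 pairs ITGA5 and ITGB4 were higher and ITGB8 was lower in the knockdown array. For ITGB4 the paired differences were 0.24, 0.61, 0.30 and 0.73, and for ITGB8 they were -0.84, -1.54, -0.65 and -0.82. ITGA3, both ITGA6 probes, ITGAV and ITGB5 were not called with this block either (adjusted p from 0.293 to 0.936), and the 95% interval of the ITGAV difference narrowed to -0.14 to 0.22. With the block numbered by the scanner files, none of the 8 probes was called.

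**Figure D4:**
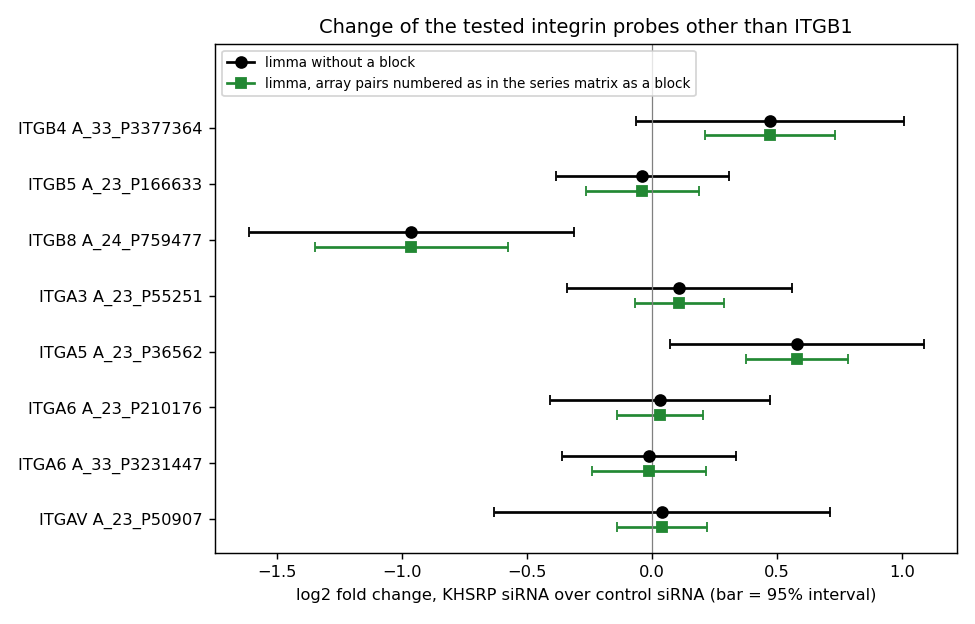
Log2 fold change of KHSRP siRNA over control siRNA (horizontal axis) with its 95% interval for the 8 tested integrin probes other than ITGB1 (vertical axis), by limma without a block (black circles) and with the array pairs of the deposited table as a block (green squares). ITGB8 at -0.96, ITGA5 at 0.58 and ITGB4 at 0.47 lie farthest from 0. Only these 3 have an adjusted p under 0.05 with the block, beside 30.1% of all tested probes. ITGB8 was tested only through the control group, where it was higher.

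The pattern of ITGB1 over the 8 arrays was most like those of BUD23, FN3KRP, ATXN1L, CALM2 and MTHFS, among 15487 ranked probes with a symbol. The Pearson r with the ITGB1 level ran from 0.993 for MTHFS to 0.995 for BUD23, over 8 arrays that hold both groups. Among the integrins the r was 0.76 for ITGB8, -0.69 for ITGA5 and -0.56 for ITGB4, and between -0.17 and 0.13 for the other 5 probes. Counted from the highest r, ITGB8 ranked 1552, ITGB4 12983 and ITGA5 13902 of the 15487 probes. ITGB8 entered the ranking only through the control group, where it was higher. Log2 fold changes of the 5 most similar genes ran from -2.39 for MTHFS to -0.68 for CALM2, with SDs among the arrays of a group of at most 0.11. These are descriptions, since ITGB1 was chosen for its difference.

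The probes of the remaining integrin subunits were mostly dim on these arrays. Of 16 other integrin genes, 13 were not tested. Among these, the leukocyte chains ITGB2, ITGAL, ITGAM and ITGAD, the collagen-binding chain ITGA1, ITGA8 and ITGB3 were not well above background on any array. ITGB7 and ITGA10 were so on 6 arrays each, ITGA11 on 4, and ITGA2B, ITGA9 and ITGAX on 1 each. The 3 tested genes were all lower in the mean, with a median log2 fold change of -0.43, and 0 were called by limma, with 1 at an unadjusted p under 0.05, beside 6.19% of all tested genes called. That 1 was ITGAE, the alpha chain of the E-cadherin receptor of intraepithelial lymphocytes, at 2.26, 2.27, 2.46 and 2.27 in the control arrays and 2.02, 1.90, 1.96 and 2.22 in the knockdown arrays. Its groups did not overlap, as in 16.2% of all tested genes, and its log2 fold change was -0.29 (SE 0.12, limma adjusted p = 0.208). ITGA7, a laminin receptor chain of muscle, had a log2 fold change of -0.43 (adjusted p = 0.594), and ITGA4, which binds fibronectin and VCAM1, one of -0.53 (adjusted p = 0.733). ITGA4 was well above background on 4 control and 3 knockdown arrays, so it was tested only through the control group, where it was higher. With the block of the table's pairs, 2 of the 3 were called, ITGAE and ITGA7, both lower, beside 33.0% of all tested genes called in that fit and 17.1% called lower.

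Of 41 genes of the adhesion machinery, which link integrin tails to actin, relay their signals or carry them through endosomes, 40 were tested and 1 was called. It was lower, as were 4.06% of all tested genes, while 2.14% were called higher. Over the list the log2 fold change had a median of -0.01, against 0.0058 over all 12125 tested genes, and 5 had an unadjusted p under 0.05. The gene called was NUMB, an endocytic adaptor that inhibits Notch and binds integrins during their uptake. Its level was 0.30, 0.71, 0.49 and 0.81 in the control arrays and -0.33, -0.71, -0.33 and -0.31 in the knockdown arrays. The groups did not overlap, and NUMB fell by 0.99 on the log2 scale (SE 0.15, limma adjusted p = 0.00928). Leaving out each array in turn kept NUMB called in 8 of 8 fits, with adjusted p-values of 0.0182 to 0.0356.

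The other tested genes of the list were not called without a block. Among them, talin 1 (TLN1), which switches integrins on through the beta tail, had a log2 fold change of 0.11 (SE 0.22). Integrin-linked kinase (ILK) had one of 0.02 (SE 0.13), vinculin (VCL) -0.06 (SE 0.11), paxillin (PXN) 0.04 (SE 0.10) and focal adhesion kinase (PTK2) 0.18 (SE 0.12). These 5 were picked for their roles after their values were seen. With the block of the table's pairs, 10 of the 40 were called, beside 33.0% of all tested genes (15.9% higher and 17.1% lower). These were FERMT1 (0.74), PARVB (0.68), LIMS1 (0.41) and CD81 (0.23), higher, and NUMB, PARVA (-0.51), SNX17 (-0.45), FERMT2 (-0.34), TGFB1I1 (-0.28) and KANK2 (-0.24), lower, named here after their values were seen. In that fit kindlin 1 (FERMT1) and beta parvin (PARVB) were among those higher, and kindlin 2 (FERMT2) and alpha parvin (PARVA) among those lower. The share of the list called was below that of all tested genes, and both directions were common there, so no pattern among relatives is read from this. SNX17 binds the beta 1 tail in endosomes and returns it to the surface, and its level was 4.15, 4.39, 4.05 and 4.40 in the control arrays and 3.63, 3.84, 4.05 and 3.67 in the knockdown arrays.

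The hemidesmosome list, whose proteins surround alpha 6 beta 4, had 9 tested genes, of which 0 were called by limma, beside 6.19% of all tested genes, and 0 had an unadjusted p under 0.05. The median log2 fold change was -0.03. Most of these genes varied far more between the sets of arrays than between the siRNAs. COL17A1, the transmembrane collagen of the hemidesmosome, was at 0.94, -0.93, 1.30 and -2.01 in the control arrays and at 0.78, -1.13, -2.16 and 1.07 in the knockdown arrays. Its SD was 1.56 and 1.55 in the groups, and the mean level differed by 2.58 between the sets. ITGB4 and the ITGA6 probes differed less between the sets, by 0.56, 0.36 and 0.29. With the block of the table's pairs, 1 of the 9 was called, beside 33.0% of all tested genes. It was LAMB3, with a log2 fold change of 0.30.

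Of 38 genes for ligands of integrins, 26 were tested, 0 were called by limma, beside 6.19% of all tested genes, and 0 had an unadjusted p under 0.05, with a median log2 fold change of 0.08. Fibronectin (FN1), the ligand of alpha 5 beta 1, was well above background on 3 arrays and was not tested. The spread within groups was wide here too, with SDs of 1.30 and 1.33 for the basement membrane collagen COL4A1 and of 1.57 and 1.57 for the laminin chain LAMA3. With the block, beside 33.0% of all tested genes, 7 of the 26 were called: COL4A1 (0.53), COL5A1 (0.44), COL4A2 (0.36) and LAMB3 (0.30), higher, and THBS1 (-0.64), COL4A6 (-0.26) and LAMB1 (-0.25), lower, also named after their values were seen.

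**Figure D5:**
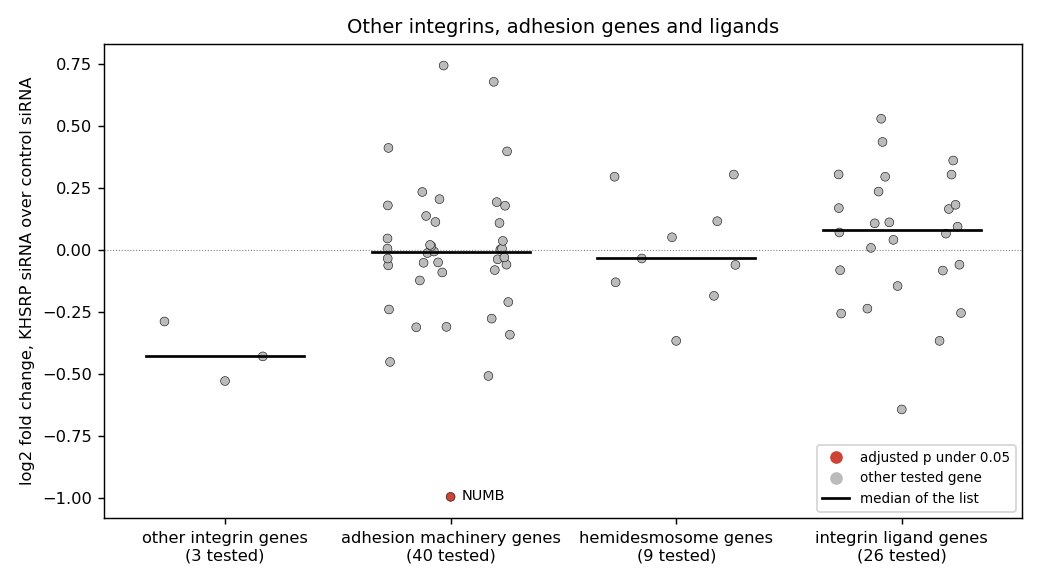
Log2 fold change of KHSRP siRNA over control siRNA (vertical axis) of each tested gene in the 4 lists (horizontal axis), with the gene called by limma without a block in red and a line at the median of each list. NUMB at -0.99 is the only gene called, and the medians lie between -0.43 for the 3 other integrin genes and 0.08 for the 26 ligand genes.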

How the data were processed

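RNA from KYSE850 cells was labelled with Cy3 and hybridised to 8 Agilent arrays. Per the labels, the authors extracted the spots with Feature Extraction 12.6, and the file headers name 11.5.1.1. The deposited scanner intensity had its background subtracted and spatial trends removed, with no normalization between arrays. The deposited table of the authors holds log2 values of the same arrays, and its columns for knockdown arrays 3 and 4 match the scanner files of each other (r = 1.000). Arrays are numbered here by the scanner files.

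Control and outlier spots were removed, spots of a probe were averaged as log2 values, and the 75th percentile of each array was subtracted. Testing required a share of 0.5 or more of the spots of a probe to be well above background on all 4 arrays of 1 group or both. This left 18761 probes, which read 12125 named genes. Names came from RefSeq (GRCh38.p14), which gave a symbol to 27241 of 42405 probes. The build of the array design differs, so no coordinates are given. limma 3.58.1 in R 4.3.3 compared the groups, two-sided, and p-values of all tested probes were adjusted together (Benjamini-Hochberg) with a threshold of 0.05, and was tested on simulated data. A gene of a list was read by its tested probe of highest mean level. In total, 24 alternatives were run, with other scalings, background corrections, filters, blocks, slides and tests (the methods' t-test among them), and with each array left out. Comparisons within the 2 sets of arrays were added after seeing the data.

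The integrins and the lists were chosen with earlier results of these data known. The text names every integrin probe, up to 3 genes called in each direction from each list, and the 5 probes most like ITGB1 by Pearson r; other genes were named after their values were seen. The number of arrays limits the precision.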

Additional observations from a re-analysis of the deposited data

Results flagged for a closer look

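In 26 groups of 4 arrays, 3 had an array that stood apart from the other arrays of its group by Dixon's test, where chance gives about 1 in 20 groups. For ITGB1, knockdown array 4 was low, at -0.37 on the log2 scale against -0.14 for the nearest array of its group. For ITGA6 probe A_23_P210176, knockdown array 4 was high, at 2.97 against 2.46. For NUMB, knockdown array 2 was low, at -0.71 against -0.33.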

How the results depend on the processing

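The ITGB1 difference was -1.61 with the normexp background correction, -2.34 and -2.04 within the sets of arrays, and -2.23 to -2.13 when an array was left out, and its median difference from the alpha probes was -1.63 with normexp and -2.39 to -2.10 without an array. With the pairs of the deposited table as a replicate block, the calls went from 0 to 3 of the 8 integrin probes other than ITGB1. They went from 0 to 1 of the 5 alpha probes, beside 30.1% of all tested probes called in that fit. The 3 include ITGB8, which was tested only through the control group, where it was higher. In the lists, 2 of 3 other integrins, 10 of 40 adhesion genes, 1 of 9 hemidesmosome genes and 7 of 26 ligand genes were called, beside 33.0% of all tested genes. The block numbered by the scanner files changed none of these counts among the integrin probes. KHSRP was lower by the same amount within each slide, -3.37 and -3.37, but no probe passed there with 2 arrays a group, and the difference was -3.46 to -3.27 when an array was left out.

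Probes near 0 changed sign. ITGA6 probe A_23_P210176 was at -0.041 with median scaling, -0.0026 with normexp and -0.0047 within slide 1, and from -0.11 to 0.17 without an array. ITGA6 probe A_33_P3231447 was at 0.0081 with the percentile of detected probes, 0.0081 with array weights and 0.091 within slide 1, and from -0.10 to 0.11 without an array. ITGAV was at -0.034 with median scaling and -0.014 with array weights, and from -0.13 to 0.21 without an array. ITGB5 was at 0.038 within slide 2 and from -0.13 to 0.032 without an array, and ITGA3 ranged from -0.028 to 0.24. None of these values passed the test. The causes were not tested.

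Over all tested probes, 1039 were called without a block, 156 with the scanner numbering, 5644 with that of the table, 570 with median scaling, 319 of 42405 with no filter on dim probes, 489 to 766 without an array and 0 within a slide. ITGA2 and ITGB6 lay at background, and ITGB8 close to it.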

Other observations

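The genes next to ITGB1 on chromosome 10 were read after the ITGB1 values had been seen. The next gene in RefSeq order, NRP1, a receptor for semaphorins and VEGF, was at 1.26, 0.41, 1.51 and -0.20 in control arrays 1 to 4 and at 2.57, 2.12, 1.19 and 2.76 in knockdown arrays 1 to 4. Its log2 fold change was 1.42 (SE 0.45), on the opposite side of 0 from ITGB1, with a limma adjusted p of 0.117 and of 0.00136 with the pairs of the deposited table as a block. PARD3, the polarity gene after it, had a log2 fold change of 0.45 (SE 0.13, limma adjusted p = 0.0811, and 0.00724 with that block). Its groups did not overlap, as in 16.2% of all tested genes, and 33.0% of all tested genes were called with that block. NRP1, PARD3 and KIF5B each had 2 tested probes, of which only the probe of higher mean level is given. None of the tested probes of these 3 genes was called without a block. CUL2, farther on that side, had a log2 fold change of 0.34 (limma adjusted p = 0.388, and 0.0384 with that block). On the other side of ITGB1, EPC1, KIF5B and ARHGAP12 had log2 fold changes of -0.10, -0.20 and 0.45 (limma adjusted p = 0.923, 0.735 and 0.563). With that block their limma adjusted p-values were 0.322, 0.0529 and 0.00740.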
